A study of Mus musculus with 4 samples.

Results

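Cholesterol is built from acetyl-CoA through a chain of enzymes whose genes share a transcriptional activator, SREBP2, and 8 genes of that program were followed here through the thymic invariant natural killer T (iNKT) cells of normal mice and of mice lacking Hivep3. The genes were taken by symbol from the 31053 genes of the count matrices, and all 8 were found: Hmgcs1, Idi1, Fdps, Fdft1, Sqle, Lss, Cyp51 and Insig1. The first 7 encode enzymes of synthesis and Insig1 encodes a brake on it. None of the 8 takes up cholesterol. Over the 19626 cells kept, the 8 genes together gave 14601 UMIs (unique molecular identifiers, each standing for 1 captured transcript), fewer than 1 per cell, and every level below is therefore a sum over the cells of a group within a library.

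SREBP2 (gene Srebf2) sits in the membrane of the endoplasmic reticulum with its escort SCAP. When sterols are low, SCAP carries it to the Golgi, where it is cut and released to the nucleus. When sterols are high, INSIG proteins hold SCAP back and cholesterol is instead exported by ABC transporters, whose genes answer to the LXR receptors. A T cell that divides needs cholesterol for new membrane, and the isoprenoids made on the way to it anchor small GTPases and feed ubiquinone and dolichol synthesis.

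C57BL/6 and Hivep3-/- mice, untreated and 8 to 9 weeks old, gave 2 libraries each, 1 mouse per library. The Hivep3-/- mice, deficient in the zinc finger protein Hivep3, had been crossed back to C57BL/6. The thymocytes were sorted with a CD1d tetramer carrying the lipid PBS57, and CD44low and CD44high cells were mixed in equal numbers, so the shares of cells at different stages were partly set by the sort. Transcripts were counted with droplet 5' chemistry. With 2 mice per genotype, p-values of the genotype comparisons rest on the spread between mice of the same genotype. Comparisons of cell states had library as a block, so their p-values rest on the spread of differences within libraries.

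Kept cells numbered 3647 to 7226 per library, with a median of 4599 to 6838 UMIs, deeper in both Hivep3-/- libraries than in both C57BL/6 libraries. Of the kept cell barcodes, 184 occurred in more than 1 library. Cd3e, a subunit of the T cell receptor complex, stood at 1047 to 1618 CPM (UMIs scaled to a total of 1000000 per library or group), and Cd79a and Ms4a1 of B cells at most at 0.118 CPM after 21 cells with B cell transcripts were removed. Hivep3 itself had 38.6 and 36.4 CPM in the C57BL/6 libraries and 101 and 68.0 CPM in the Hivep3-/- libraries. Counts from the 5' end check nothing of a deletion elsewhere in the transcript. Xist, of the inactive X chromosome, had 325 CPM in C57BL/6 replicate 1 and at most 0.732 CPM in the other libraries. By this transcript C57BL/6 replicate 1 looked female and the other 3 libraries male, while the paper describes the C57BL/6 mice of this experiment as female. Sex thus appeared to differ within C57BL/6 and was not adjusted for in the genotype comparisons.

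The 8 genes are spread over 6 chromosomes (mm10, GENCODE vM21). Hmgcs1 and Idi1 lie on the plus strand of chromosome 13, at 119690379 to 119708260 and at 8885501 to 8892451. Insig1 and Cyp51 lie on chromosome 5, on the plus strand at 28071363 to 28078662 and on the minus strand at 4081145 to 4104746. Fdps is on the minus strand of chromosome 3 (89093588 to 89101959), Fdft1 on the minus strand of chromosome 14 (63145150 to 63179578), Sqle on the plus strand of chromosome 15 (59315077 to 59331192) and Lss on the plus strand of chromosome 10 (76531588 to 76557138).

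RefSeq (GRCm38.p6) start sites with promoter sequence were at hand for 5 of the 8 genes, Hmgcs1, Idi1, Cyp51, Lss and Insig1. In the 250 bases before the start, on both strands, 3 motifs were searched: TCACNCCAC, the core of the sterol regulatory element that SREBP2 binds; CCAAT, bound by NF-Y; and GGGCGG, bound by Sp1. Of the 32851 mouse promoters of that length, 1.05% held the first, 33.8% the second and 32.7% the third. All 5 members held CCAAT and GGGCGG, and Hmgcs1 alone held the sterol element core, 137 bases before its start, with CCAAT at 237, 176 and 45 bases and GGGCGG at 92 and 24 bases. Insig1 held CCAAT at 216 bases and GGGCGG at 229, 167 and 126 bases. Cyp51 held CCAAT at 29 bases, past the end of the stretch shown, and GGGCGG at 135 bases. Idi1 held CCAAT at 45 and 14 bases and GGGCGG at 69 bases, and Lss CCAAT at 62 bases and GGGCGG at 166 and 127 bases. No 2 matches overlapped. A match of letters is no measured binding site. For 3 of these promoters the stretch that ends before the GENCODE gene start is shown 5' to 3' on the gene's strand. Matches in either direction are in capitals. They are Hmgcs1, the one with the sterol element core (chr13:119690101-119690350, plus), Insig1 (chr5:28071162-28071362, plus) and Cyp51 (chr5:4104747-4104947, minus). In the cells with S or G2/M genes described below, Insig1 was not called and Cyp51 was called higher.
Hmgcs1: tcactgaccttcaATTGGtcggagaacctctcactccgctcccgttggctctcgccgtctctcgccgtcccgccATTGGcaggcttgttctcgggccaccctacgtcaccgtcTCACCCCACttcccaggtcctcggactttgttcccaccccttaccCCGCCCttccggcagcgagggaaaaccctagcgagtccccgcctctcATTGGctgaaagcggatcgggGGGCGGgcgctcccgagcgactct
Insig1: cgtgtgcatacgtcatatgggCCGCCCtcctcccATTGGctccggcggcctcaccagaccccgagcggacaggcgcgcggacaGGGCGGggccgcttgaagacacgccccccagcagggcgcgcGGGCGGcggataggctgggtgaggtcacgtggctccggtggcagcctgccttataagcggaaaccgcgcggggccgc
Cyp51: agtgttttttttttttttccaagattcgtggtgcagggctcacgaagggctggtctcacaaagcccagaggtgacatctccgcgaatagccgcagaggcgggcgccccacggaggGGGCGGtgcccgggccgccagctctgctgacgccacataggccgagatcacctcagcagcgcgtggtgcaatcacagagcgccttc

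Which iNKT states carried these transcripts was asked first. Cells were clustered without the members and without the other genes of cholesterol metabolism, and 14 clusters were obtained, named from marker genes where at least 3 markers allowed it. The summed level of the 8 genes was highest in 3 kinds of cells: stage 0-like cells (led by Itm2a, with Cd24a and Egr2), which are the earliest iNKT cells after selection; cycling-like cells; and an iNKT1-like cluster led by Ccl1 and Gzmb. Levels by cluster are a description, with no test.

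In stage 0-like cells the summed level was 166 and 137 CPM in C57BL/6 replicates 1 and 2 and 173 and 187 CPM in Hivep3-/- replicates 1 and 2. The Ccl1 and Gzmb cluster had 207 and 169 CPM in C57BL/6 and 165 and 132 CPM in Hivep3-/-. Cycling-like cells had 138 and 144 CPM in C57BL/6 and 152 and 168 CPM in Hivep3-/-. The ranges of these 3 groups overlapped. iNKT2-like cells had 85.2 and 77.5 CPM in C57BL/6 and 83.0 and 78.9 CPM in Hivep3-/-, and iNKT17-like cells had 74.4 and 75.1 CPM and 88.6 and 68.2 CPM. Every library of the first 3 groups stood above every library of these 2 classes.

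Ranked by the mean over the 4 libraries, the clusters fell into steps that were not all separate. The Ccl1 and Gzmb cluster (168 ± 30.7 CPM, SD, n = 4), stage 0-like cells (166 ± 20.9), the cycling clusters led by Hist1h2ap (162 ± 26.9) and by Cdc6 (155 ± 11.03) did not separate from their neighbours. The cycling cluster led by Ccnb2, a cyclin of mitosis, came next at 128 ± 6.01 CPM, below every library of the Cdc6 cluster. Its highest library (136 CPM) stood above the lowest of the Ccl1 and Gzmb cluster (132 CPM). An unnamed cluster led by Tnni1 had 107 ± 5.38 CPM, above every library of the iNKT2-like cells at 81.1 ± 3.57. The remaining clusters, unnamed cells led by Klra3 (78.5 ± 7.51), iNKT1-like cells led by Fgl2 (77.0 ± 6.56), interferon-responsive cells led by Ifit3 (76.7 ± 10.4), iNKT17-like cells (76.6 ± 8.56) and iNKT1-like cells led by Ccl5 (76.0 ± 13.0), could not be told from each other. A pair of small clusters, led by Malt1 (116 cells, 48 member UMIs) and by Klrg1 (50 cells, 22 member UMIs), spanned 0 to 289 CPM between libraries and is not ranked.

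**Figure D1:**
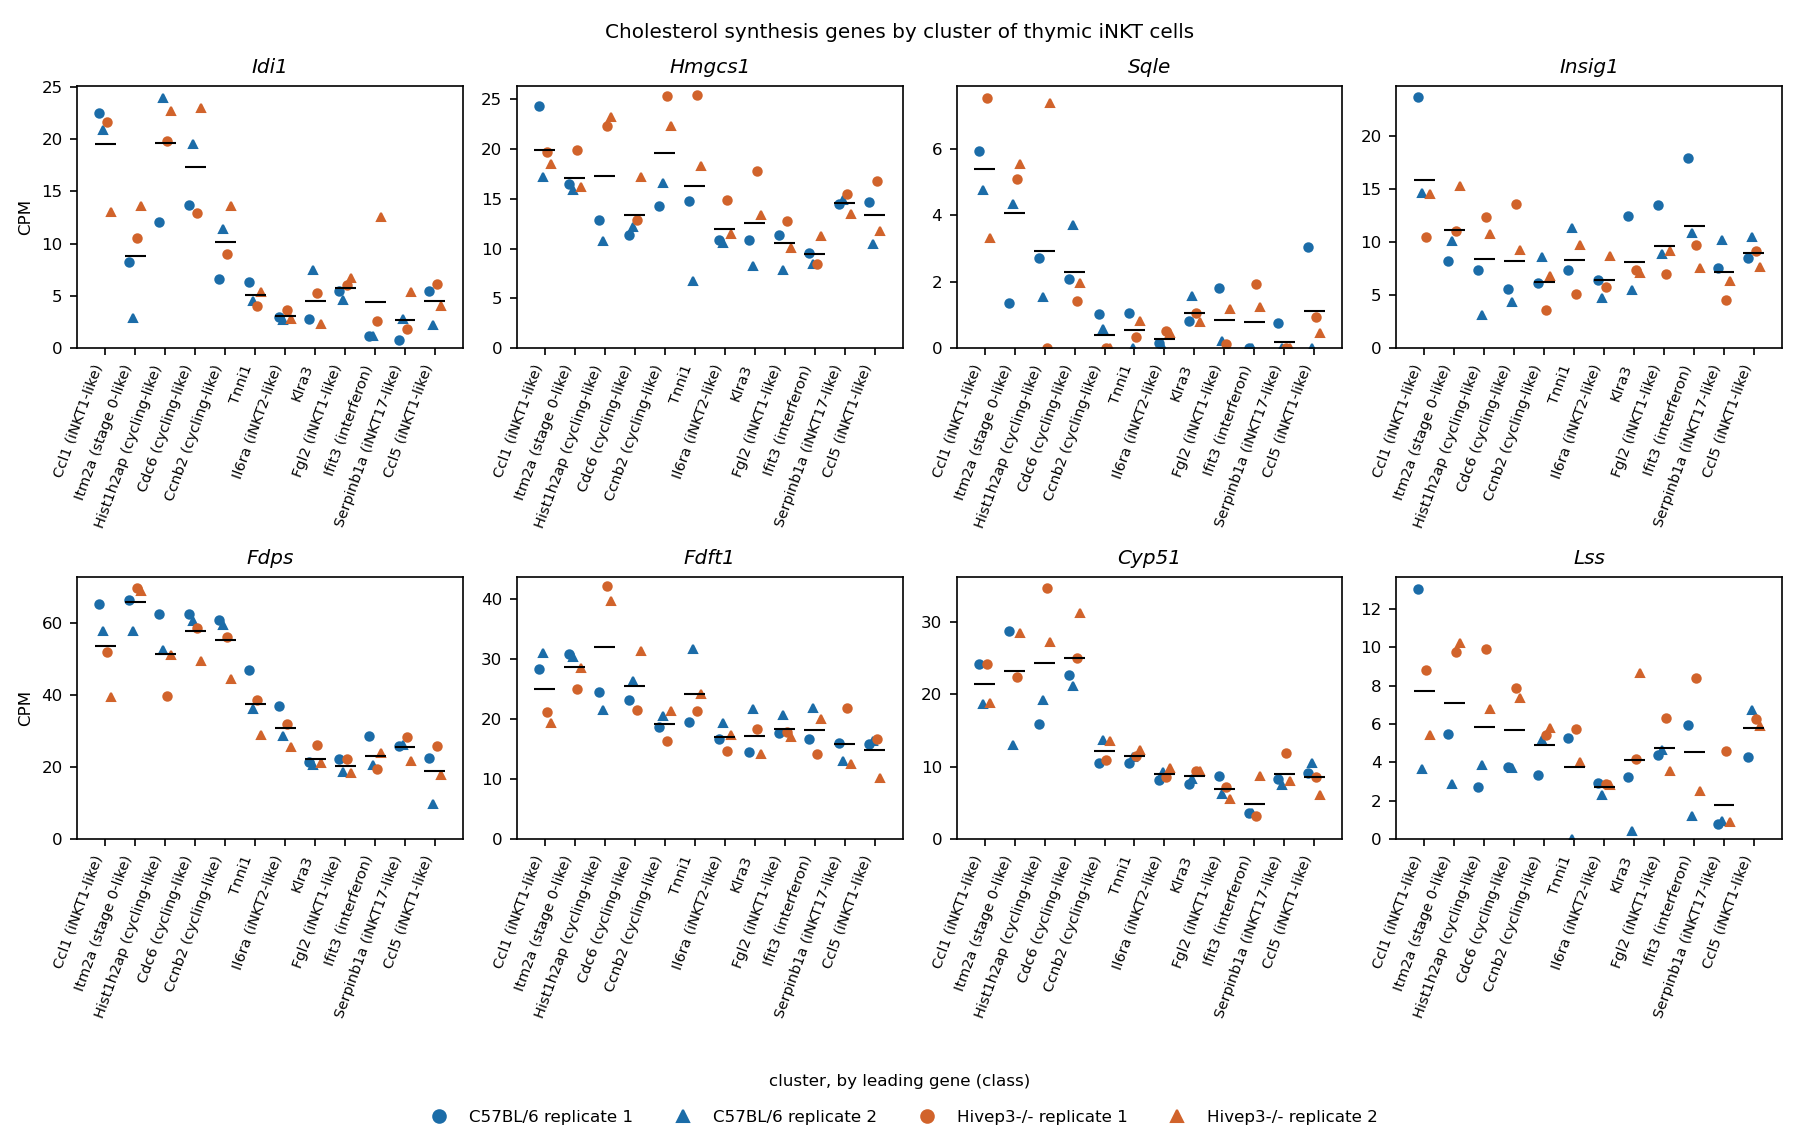
Level of each of the 8 genes (CPM, linear axis from 0) in the clusters, without the small Malt1 and Klrg1 clusters, ordered by the summed level; each point is 1 library (blue C57BL/6, orange Hivep3-/-; circle replicate 1, triangle replicate 2) and the bar is the mean of 4. Fdps stands at 39.3 CPM or more in every library of the first 5 clusters and at 37.0 CPM or less in every library of the iNKT2-like cluster.

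The genes did not take part equally. Fdps, farnesyl diphosphate synthase, which makes the last intermediate shared by sterols and other isoprenoids, had 66.5, 57.8, 69.8 and 68.9 CPM in stage 0-like cells of C57BL/6 replicates 1 and 2 and Hivep3-/- replicates 1 and 2, against 37.0, 28.7, 31.9 and 25.5 CPM in iNKT2-like cells. Its lowest stage 0-like library thus stood above its highest iNKT2-like library, at 1.80 to 2.70 times the level within a library. Cyp51, the lanosterol demethylase, had 28.8, 13.0, 22.4 and 28.5 CPM in stage 0-like cells and 8.11, 9.28, 8.64 and 9.83 CPM in iNKT2-like cells, again without overlap. How many of all genes lacked overlap between these classes was not counted, so here and below it is a description only.

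Idi1, which turns isopentenyl diphosphate into its reactive isomer, stood at 8.22, 2.89, 10.6 and 13.6 CPM in stage 0-like cells and at 2.99, 2.68, 3.66 and 2.81 CPM in iNKT2-like cells, so C57BL/6 replicate 2 showed next to no difference. Its highest means were in the Hist1h2ap cycling cluster, at 19.6 CPM, and the Ccl1 and Gzmb cluster, at 19.5 CPM. Sqle, squalene epoxidase, was the sparsest member, with 223 UMIs in all cells. It had 1.37, 4.33, 5.08 and 5.53 CPM in stage 0-like cells and at most 0.523 CPM in any iNKT2-like library, 1 of which held none. In iNKT17-like cells only 1 Sqle UMI was counted, in C57BL/6 replicate 1.

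Fdft1, squalene synthase, the first step committed to sterols, differed less: 30.8, 30.3, 25.0 and 28.5 CPM in stage 0-like cells and 16.7, 19.4, 14.7 and 17.3 CPM in iNKT2-like cells. Hmgcs1, the HMG-CoA synthase at the head of the pathway, had 16.4, 15.9, 19.9 and 16.2 CPM in stage 0-like cells against 10.9, 10.5, 14.9 and 11.5 CPM in iNKT2-like cells. Both kept their groups apart, at 1.56 to 1.85 times and 1.33 to 1.51 times the level within a library. Lss, lanosterol synthase, and Insig1 overlapped between these classes, with 2.89 to 10.2 CPM and 8.22 to 15.3 CPM in stage 0-like libraries against 2.27 to 2.91 CPM and 4.74 to 8.66 CPM in iNKT2-like libraries, although each was higher in stage 0-like cells within all 4 libraries.

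Of the regulators, Srebf2 had 31.5, 20.2, 52.0 and 28.9 CPM in stage 0-like cells and 12.8, 11.7, 21.7 and 15.0 CPM in iNKT2-like cells, higher within each library. Scap overlapped, with 9.36 to 29.6 CPM against 11.95 to 27.5 CPM.

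The Ccl1 and Gzmb cluster differed from the other iNKT1-like cells in the same genes. Compared with the Fgl2 cluster of the same library, its summed member level was 2.43, 2.35, 2.08 and 1.84 times as high. Idi1 was 1.93 to 4.50 times, Cyp51 2.80 to 3.38 times, Fdps 2.13 to 3.12 times and Hmgcs1 1.55 to 2.19 times as high, each without overlap between the libraries of the clusters. Sqle, from 74 and 20 UMIs, did not overlap either. Srebf2 was 1.30 to 1.68 times as high, also without overlap. The share of all genes without overlap between these clusters was not counted. Insig1 (1.504 to 1.75 times) and Fdft1 (1.14 to 1.61 times) were higher within each library with overlapping ranges, and Lss was higher in 3 of 4. Division markers moved with the cluster: Mki67, a nuclear protein of dividing cells, stood at 30.2 to 41.4 CPM there and at 0.274 to 3.04 CPM in the Fgl2 cluster, and cells of the cluster were deeper, at a mean of 4800 to 8527 against 3459 to 6162 UMIs. The part of depth in these levels was not tested, and levels in cells with no cell cycle UMI among the 2000 kept are given with the Gzmb comparison.

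When the 8 genes and the other cholesterol genes were kept among the clustering genes, the summed level in stage 0-like cells was 165, 137, 172 and 194 CPM and in iNKT2-like cells 84.2, 77.1, 81.6 and 78.8 CPM.

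The genes whose levels most resembled the summed members over 24 points, each 1 class in 1 library, were Nup43, Mcm7, Tex30, Mapre1, Tubb5, Cct7, Zranb2, Utp3, Eif1ad and Pnn, with Pearson r from 0.923 to 0.951 on log2(CPM + 1) among 5325 genes ranked. For comparison, r was 0.488 for Mki67, 0.377 for Srebf2 and -0.466 for Gzmb. The points share libraries and depth and are not independent, so no p is given.

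Division was then set against the members cell by cell. Each cell was thinned to 2000 UMIs, and 750 cells below that depth were left out. Cells with at least 2 UMIs of 20 G2/M genes were called G2/M-gene-positive (1156 cells), those with at least 2 UMIs of 18 S phase genes and fewer of the G2/M genes were called S-gene-positive (3563 cells), and those with none of either were called non-dividing (8928 cells). The cells in between, 5229, were left out of the tests. Idi1, Sqle, Fdps and Cyp51 rose in both kinds of positive cells, Fdft1 rose in G2/M-gene-positive cells, and Hmgcs1, Lss and Insig1 were not called in either.

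Much else differed between these cells. Of 10867 genes tested, 29.9% were called higher and 30.2% lower in G2/M-gene-positive cells, against 5 and 0 of the 8 members. In S-gene-positive cells 25.2% were called higher and 24.7% lower, against 4 and 0 members. The median log2 difference was 0.66 over the members and -0.03 over all genes in the first comparison, and 0.57 and -0.01 in the second.

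Idi1 had 11.4, 17.8, 16.7 and 20.3 CPM in G2/M-gene-positive cells of C57BL/6 replicates 1 and 2 and Hivep3-/- replicates 1 and 2, against 3.59, 4.26, 6.52 and 5.54 CPM in non-dividing cells. The groups did not overlap, and the rise was 1.63 ± 0.18 on the log2 scale (SE; adjusted p = 3.9e-06, edgeR quasi-likelihood test over all genes with library as a block). Fdps had 63.9, 57.1, 45.5 and 49.2 CPM against 30.4, 27.5, 27.5 and 23.9 CPM, a log2 rise of 0.93 ± 0.08 (edgeR adjusted p = 4.58e-07). The level of Cyp51 was 15.3, 15.6, 18.2 and 22.8 CPM against 8.55, 8.16, 10.4 and 8.95 CPM, a log2 rise of 0.89 ± 0.13 (edgeR adjusted p = 5.15e-05). For these 3 genes every library moved the same way.

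Sqle rested on 34 UMIs in G2/M-gene-positive cells. It had 1.75, 0.936, 3.04 and 4.62 CPM against 0.914, 1.27, 1.05 and 0.9505 CPM in non-dividing cells, higher in 3 of 4 libraries, with a log2 rise of 1.17 ± 0.39 (edgeR adjusted p = 0.0192). Fdft1 had 22.3, 21.8, 29.6 and 33.5 CPM against 16.6, 22.0, 18.4 and 16.4 CPM, also higher in 3 of 4 libraries, with a log2 rise of 0.43 ± 0.14 (edgeR adjusted p = 0.0178). Without Hivep3-/- replicate 2 neither gene was called (0.68 and 0.25, edgeR adjusted p = 0.199 and 0.169), which left 3 of the 8 members called. Without Hivep3-/- replicate 1 Sqle was not called (1.08). Sqle was called in 9 of the 12 alternatives that tested it, with a lowest log2 rise of 0.66.

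Hmgcs1 was higher in all 4 libraries, 13.5, 15.3, 17.5 and 20.003 CPM against 12.3, 10.8, 16.3 and 14.4 CPM, by a log2 difference of 0.23 ± 0.11 that was not called (edgeR adjusted p = 0.0824). Lss had 3.64 to 5.85 CPM against 2.72 to 6.06 CPM (log2 difference 0.14 ± 0.19, edgeR adjusted p = 0.607). The brake, Insig1, had 7.57, 5.93, 8.35 and 10.5 CPM against 10.1, 9.16, 6.78 and 8.55 CPM: lower in both C57BL/6 libraries, higher in both Hivep3-/- libraries, and overlapping (log2 difference -0.23 ± 0.21, edgeR adjusted p = 0.373).

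In S-gene-positive cells 4 members rose. Idi1 had 10.7, 16.1, 11.9 and 13.4 CPM there, a log2 rise of 1.30 ± 0.16 over non-dividing cells (edgeR adjusted p = 2.58e-05). Fdps had 55.3, 47.8, 51.5 and 40.1 CPM (log2 rise 0.76 ± 0.07, edgeR adjusted p = 4.77e-06). Cyp51 had 19.2, 15.9, 17.7 and 20.3 CPM (log2 rise 0.95 ± 0.11, edgeR adjusted p = 1.91e-05). Sqle had 2.19, 2.58, 3.41 and 2.26 CPM (log2 rise 1.24 ± 0.31, edgeR adjusted p = 0.00522). All 4 genes stood above every non-dividing library. Fdft1 (0.27 ± 0.12, edgeR adjusted p = 0.0836), Lss (0.37 ± 0.15, 0.0603), Hmgcs1 (0.04 ± 0.09, 0.734) and Insig1 (-0.15 ± 0.17, 0.495) were not called.

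**Figure D2:**
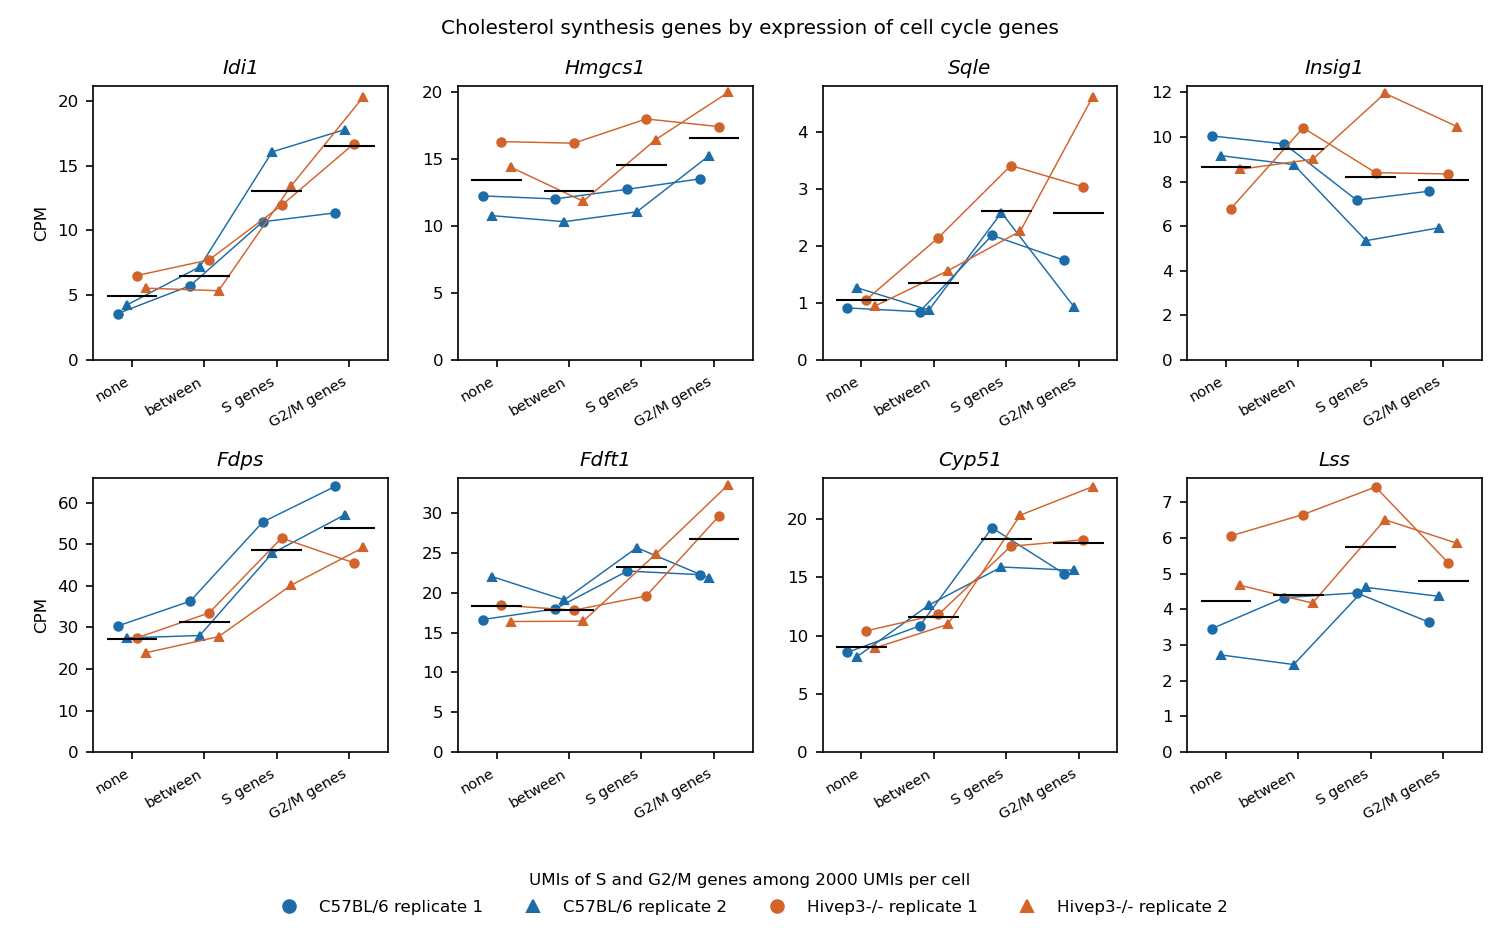
Level of each member (CPM, linear axis from 0) in cells with no UMI of the S and G2/M genes, in cells between, and in S-gene-positive and G2/M-gene-positive cells; points are libraries, joined by lines within a library, and bars are means of 4. Idi1, Fdps and Cyp51 are higher in S- and G2/M-gene-positive than in non-dividing cells in all 4 libraries, while Insig1 is lower in both C57BL/6 and higher in both Hivep3-/- libraries.

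The positive cells were also of other classes and deeper. Cycling-like cells made up 536 of 592, 190 of 211, 69 of 113 and 198 of 240 G2/M-gene-positive cells of the 4 libraries. Their mean depth was 11601 to 15197 UMIs, against 5245 to 6999 UMIs in non-dividing cells. Of S-gene-positive cells, only 484 of 1316, 154 of 540, 96 of 912 and 137 of 795 were cycling-like. Mki67 stood at 5.60 to 17.2 CPM in S-gene-positive and at 171 to 260 CPM in G2/M-gene-positive cells, against 0.554 to 1.63 CPM in non-dividing cells. The part of cell class in the S comparison was not tested. With every cell at 2000 UMIs, Idi1, Fdps and Cyp51 were called in both comparisons and Sqle was too sparse to test, so 3 of 7 members tested were called, beside 22.7% and 17.9% of 8876 genes called higher in G2/M- and S-gene-positive cells. With non-dividing iNKT2-like cells alone as the reference, 6 members were called in G2/M-gene-positive cells, Lss among them (log2 difference 0.89, edgeR adjusted p = 0.0242), and 5 in S-gene-positive cells, beside 25.4% and 16.9% of 10102 genes called higher. Phases were not read from the calls: 44.2% to 54.2% of stage 0-like cells were S-gene-positive with 0% to 3.63% G2/M-gene-positive.

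S-gene-positive iNKT1-like cells had 1.83 to 2.73 times the Idi1, 1.32 to 1.88 times the Fdps and 1.23 to 1.52 times the Cyp51 level of non-dividing iNKT1-like cells of the same library, while Insig1 ranged from 0.393 to 1.55 times. In iNKT2-like cells Idi1 was 0.342 to 3.36 times and Fdps 0.995 to 1.48 times as high, each higher in 3 of 4 libraries. There Cyp51 was 1.05 to 2.42 times and Lss 1.37 to 3.53 times as high, each in 4 of 4 libraries, and the summed level was higher in 3 of 4 libraries (0.904 to 1.44 times). These ratios were not tested.

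In the wider pathway calls went both ways. Of 13 other synthesis genes, all tested, 5 rose and 1 fell in G2/M-gene-positive cells: Pmvk (0.88 ± 0.11), which phosphorylates mevalonate phosphate, Acat2 (0.85 ± 0.13), which joins acetyl-CoA units, Dhcr7 (0.48 ± 0.09) and Ebp (0.37 ± 0.07) were among those that rose, and Mvd, the next step after Pmvk, fell (-0.64 ± 0.13). In S-gene-positive cells 4 rose, among them Pmvk (0.68), Acat2 (0.75) and Dhcr7 (0.36), and 2 fell, Mvd (-0.34) and Sc5d (-0.25). The median log2 difference of this list was 0.00 and 0.11.

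Of 12 tested genes of uptake and regulation, 1 rose and 3 fell in G2/M-gene-positive cells. Scarb1, a receptor of high density lipoprotein, rose by 0.84 ± 0.16 on the log2 scale. Npc2, which moves cholesterol out of lysosomes (-0.57 ± 0.06), Mbtps1, the protease that first cuts SREBP2 (-0.32 ± 0.09), and Insig2 (-0.51 ± 0.15) fell. In S-gene-positive cells Scarb1 (0.95) and Stard4 (0.31) rose and Npc2 (-0.32), Npc1 (-0.46) and Insig2 (-0.34) fell. Srebf2 (-0.18 ± 0.12 and -0.01 ± 0.10) and Scap (-0.09 ± 0.15 and -0.07 ± 0.13) were not called in either comparison (edgeR adjusted p = 0.223 to 0.948).

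Of 7 tested genes of efflux and LXR response, Mylip, a ubiquitin ligase induced by LXR (-1.05 ± 0.10), Abcg1 (-0.97 ± 0.09) and Abca1 (-1.37 ± 0.15), both cholesterol exporters, fell in G2/M-gene-positive cells and none rose, beside 30.2% of all genes called lower. In S-gene-positive cells the same 3 fell (-0.70, -0.54 and -0.67) and Lpcat3 rose (0.30), beside 24.7% of all genes called lower. The median log2 difference of this list was 0.01 and 0.00. Fads1 and Scd2, desaturases of fatty acids, rose in both comparisons (1.74 and 0.69 in G2/M-gene-positive, 1.30 and 0.49 in S-gene-positive cells) and Fasn in S-gene-positive cells (0.29), of 6 fatty acid genes tested. Of 7 genes on the isoprenoid branches, 5 rose and 1 fell in G2/M-gene-positive cells and 4 rose and 1 fell in S-gene-positive cells. Pdss1, which makes the tail of ubiquinone, rose in both (1.41 ± 0.14 and 1.03 ± 0.13), as did Fntb (0.55 and 0.35), Coq2 (0.42 and 0.37) and Dhdds (0.36 and 0.40), Pggt1b rose in G2/M-gene-positive cells (0.24), and Ggps1, which extends farnesyl diphosphate, fell (-0.57 ± 0.08 and -0.34 ± 0.07).

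**Figure D3:**
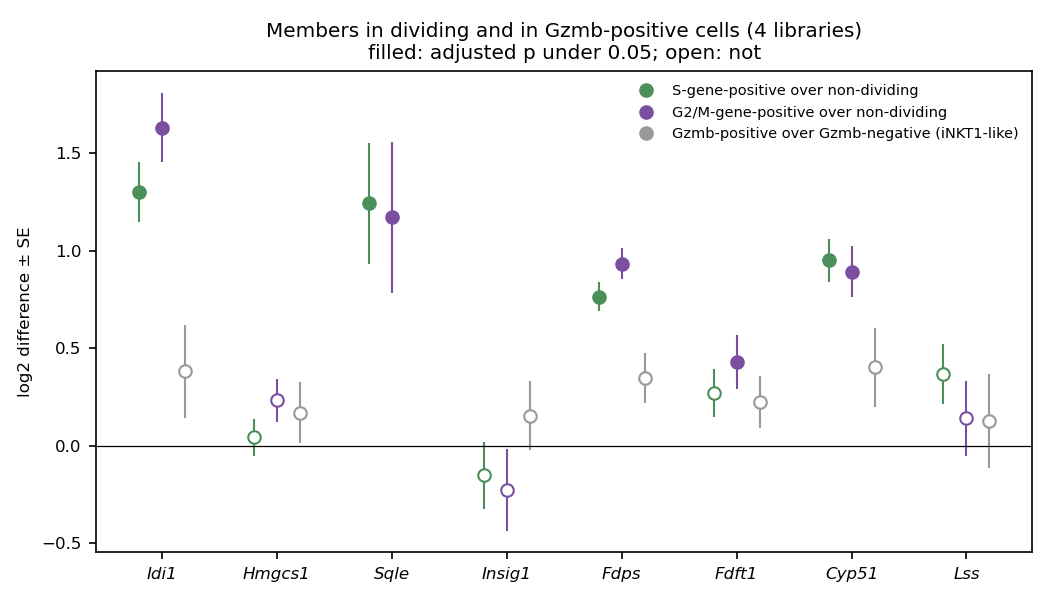
Log2 differences ± SE of the 8 members in S-gene-positive cells (green) and G2/M-gene-positive cells (purple) over non-dividing cells and in Gzmb-positive over Gzmb-negative non-dividing iNKT1-like cells (grey); filled points had an adjusted p under 0.05. Idi1 leads in the S- and G2/M-gene-positive comparisons at 1.30 and 1.63, and no grey point is filled (Sqle was not tested there).

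Gzmb encodes granzyme B, a protease that cytotoxic cells deliver to their targets. It was compared among non-dividing iNKT1-like cells, 2715 with at least 1 Gzmb UMI in 2000 and 2360 with none. At full depth the negative cells still held 1512 Gzmb UMIs, 106 to 178 CPM, against 1001 to 1610 CPM in the positive cells. The negative group was therefore not free of Gzmb. Between 49.5% and 65.1% of all iNKT1-like cells were positive, against 0% to 1.08% of iNKT2-like cells and 0% to 0.962% of stage 0-like cells. The summed member level was 106, 99.8, 104 and 89.9 CPM in Gzmb-positive cells of C57BL/6 replicates 1 and 2 and Hivep3-/- replicates 1 and 2, and 84.2, 96.8, 87.5 and 64.2 CPM in Gzmb-negative cells. It was higher within each library and overlapped between groups.

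None of the 7 members tested was called, where 1.44% of 9146 genes were called. An unadjusted p under 0.05 in edgeR was found for 1 member, Fdps, and for 965 of the 9146 genes. DESeq2 called none of the members. Log2 differences ran from 0.13 (Lss) to 0.40 ± 0.20 (Cyp51, edgeR adjusted p = 0.493), with 0.38 ± 0.24 for Idi1 (0.623), 0.35 ± 0.13 for Fdps (0.268), 0.22 for Fdft1, 0.17 for Hmgcs1 and 0.15 for Insig1. All 7 were positive, and the median over all genes was 0.00. Sqle, with 31 and 11 UMIs in the groups, did not pass the low-count filter.

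The 10 other synthesis genes tested gave no call, with log2 differences from 0.05 to 0.37. Of 6 export genes, Abca1 fell (-0.59 ± 0.13, edgeR adjusted p = 0.017), and none of 6 fatty acid and 7 isoprenoid genes was called. Of 11 tested genes of uptake and regulation, 1 was called higher (edgeR adjusted p = 0.0147), and log2 differences in that list ran from -0.29 to 1.23. In the same list Srebf2 (0.21 ± 0.12) and Scap (-0.05 ± 0.13) were not called (edgeR adjusted p = 0.563 to 0.937).

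The member level differed between clusters in both Gzmb groups. Outside the Ccl1 and Gzmb cluster, Gzmb-positive cells had 92.2, 63.6, 82.4 and 75.6 CPM of the summed members and Gzmb-negative cells 77.1, 76.9, 83.8 and 60.2 CPM, with no constant direction. Inside that cluster, Gzmb-negative cells had 150, 186, 105 and 103 CPM and Gzmb-positive cells 214, 219, 172 and 136 CPM. Both cluster groups stood above every library of both other groups. These cells held no UMI of the 38 cell cycle genes among the 2000 UMIs kept, which does not show that they were not dividing. At full depth the Gzmb-negative and Gzmb-positive cells of the cluster (263 and 487 cells) held 1 and 2 UMIs of Mki67. Those outside the cluster (2097 and 2228 cells) held 11 and 2. Tested without the cluster, Cyp51 differed by 0.00 and Idi1 by 0.08 on the log2 scale, and inside it alone 3 members could be tested, with Cyp51 at 0.72 and Fdft1 at 0.83 (edgeR adjusted p = 0.556 and 0.456); both are alternatives chosen after the levels were seen.

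**Figure D4:**
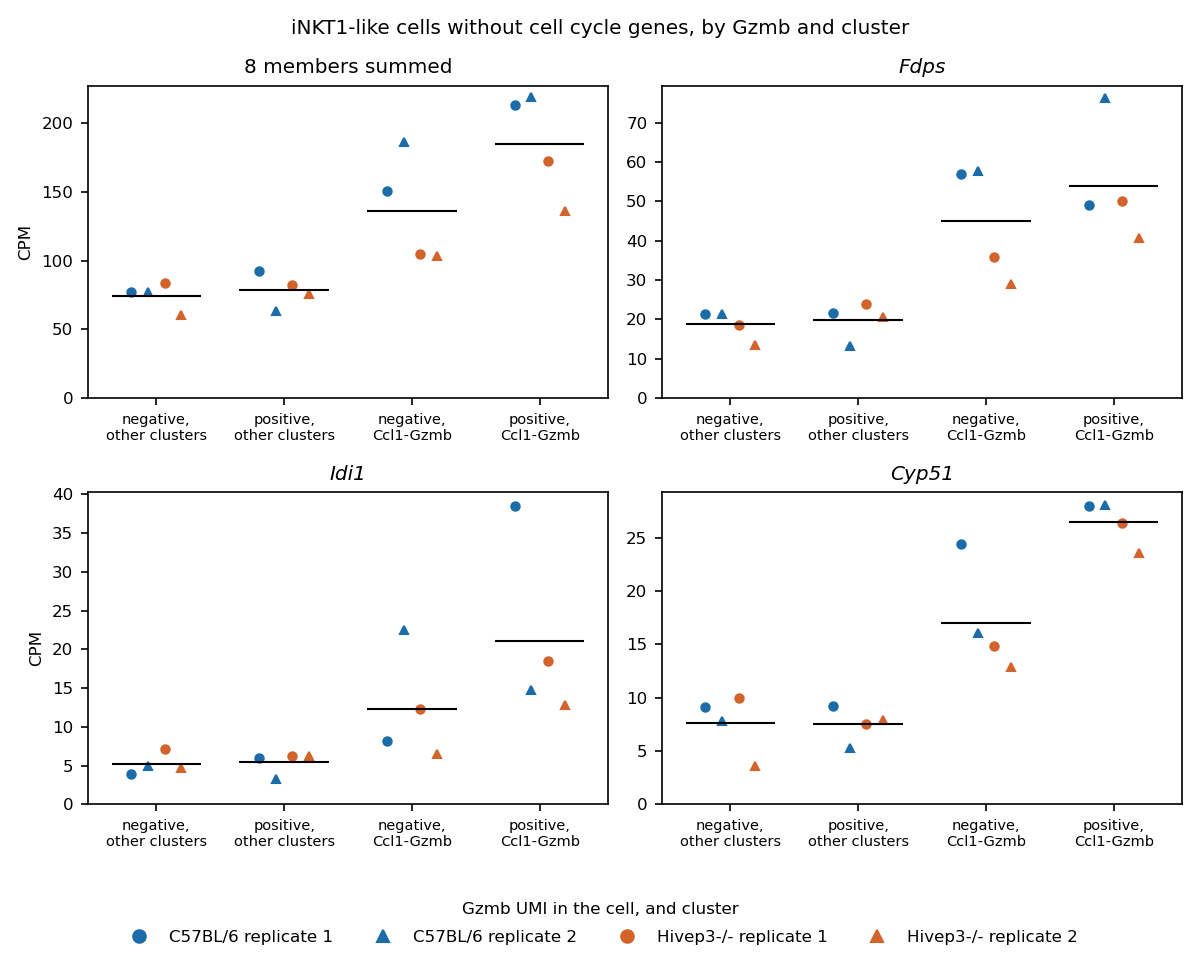
Summed level of the 8 members and levels of Fdps, Idi1 and Cyp51 (CPM, linear axes from 0) in non-dividing iNKT1-like cells, split by Gzmb UMI and by cluster; points are libraries and bars are means of 4. Both groups inside the Ccl1-Gzmb cluster (103 to 219 CPM summed) lie above both groups outside it (60.2 to 92.2 CPM).

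By the number of Gzmb UMIs in 2000, the summed level did not climb evenly. It was 64.2 to 96.8 CPM with 0, 80.9 to 104 CPM with 1 and 70.8 to 105 CPM with 2, and it was 145, 123, 119 and 79.4 CPM with 3 or more. When all non-dividing cells replaced iNKT1-like cells, 4 of 7 members were called, Idi1 (1.06), Lss (0.74), Insig1 (0.55) and Cyp51 (0.47). In that contrast 14.0% of 10100 genes were called higher. Its Gzmb-negative group holds cells of other classes beside Gzmb-negative iNKT1-like cells, so class and Gzmb cannot be told apart in it.

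Genotype was compared last. The comparison asks whether these genes changed in the absence of Hivep3. None of the 8 members was called in all cells, where 0.741% of 12277 genes were called, and none had an unadjusted p under 0.05 in edgeR or was called by DESeq2. The summed level was 110 and 102 CPM in the C57BL/6 libraries and 110 and 106 CPM in the Hivep3-/- libraries, which overlapped.

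Fdps had 43.4 and 35.6 CPM in C57BL/6 and 35.7 and 31.6 CPM in Hivep3-/- (log2 difference -0.33 ± 0.16, edgeR adjusted p = 0.481). Lss had 3.93 and 3.26 CPM in C57BL/6 and 6.56 and 5.13 CPM in Hivep3-/-, without overlap (0.60 ± 0.25, edgeR adjusted p = 0.421). Hmgcs1 had 12.6 and 11.3 CPM and 16.8 and 14.8 CPM, also without overlap (0.31 ± 0.17, edgeR adjusted p = 0.544). Sqle (0.33 ± 0.31), Idi1 (0.02 ± 0.22), Cyp51 (0.02 ± 0.18), Insig1 (0.00 ± 0.22) and Fdft1 (-0.18 ± 0.16) had edgeR adjusted p from 0.723 to 0.998. The libraries of Sqle and Cyp51 did not overlap either, both higher in Hivep3-/-. How many of all genes lacked overlap between the genotypes was not counted, so a lack of overlap is a description only. Srebf2 (0.34 ± 0.21) and Scap (0.34 ± 0.33) were not called either. In all cells a change in the mixture of classes and a change within cells cannot be told apart, and cycling-like cells made up 15.8% and 10.5% of C57BL/6 and 4.03% and 8.56% of Hivep3-/- cells.

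Class by class no member was called. In stage 0-like cells 7 members were tested and 0.275% of 8735 genes were called; in iNKT2-like cells 7 members and 0.486% of 9669 genes; in iNKT17-like cells 3 members and 0.105% of 7608 genes. None of these members had an unadjusted p under 0.05. In cycling-like cells 8 members were tested and 4.09% of 10157 genes were called. An unadjusted p under 0.05 in edgeR was found for 3 members, Fdps, Lss and Insig1, and for 1877 of the 10157 genes. In iNKT1-like cells 8 members were tested and 0.606% of 10721 genes were called. The unadjusted p in edgeR was under 0.05 for Fdft1 alone of the members and for 863 of the 10721 genes. DESeq2 called no member in any class. At the counts behind Sqle, Idi1 and Lss in stage 0-like cells, 30, 71 and 57 UMIs, changes of the size seen could not be resolved.

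In cycling-like cells Fdps had 62.1 and 58.5 CPM in C57BL/6 and 54.8 and 48.9 CPM in Hivep3-/- (log2 difference -0.39 ± 0.15, edgeR adjusted p = 0.222). Insig1 had 6.04 and 5.32 CPM and 11.05 and 9.29 CPM (0.65 ± 0.26, edgeR adjusted p = 0.250), and Lss 3.44 and 4.15 CPM and 7.65 and 6.82 CPM (0.78 ± 0.31, edgeR adjusted p = 0.235). The libraries of the genotypes did not overlap for these 3 genes, and at least Fdft1 did not overlap there either. The share of all genes without such overlap was not counted. In iNKT1-like cells Insig1 ran the other way, 14.5 and 10.8 CPM in C57BL/6 and 8.68 and 9.99 CPM in Hivep3-/- (-0.52 ± 0.23, edgeR adjusted p = 0.636), and Fdft1 had 19.2 and 23.2 CPM and 18.4 and 15.2 CPM (-0.41 ± 0.17, edgeR adjusted p = 0.602).

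**Figure D5:**
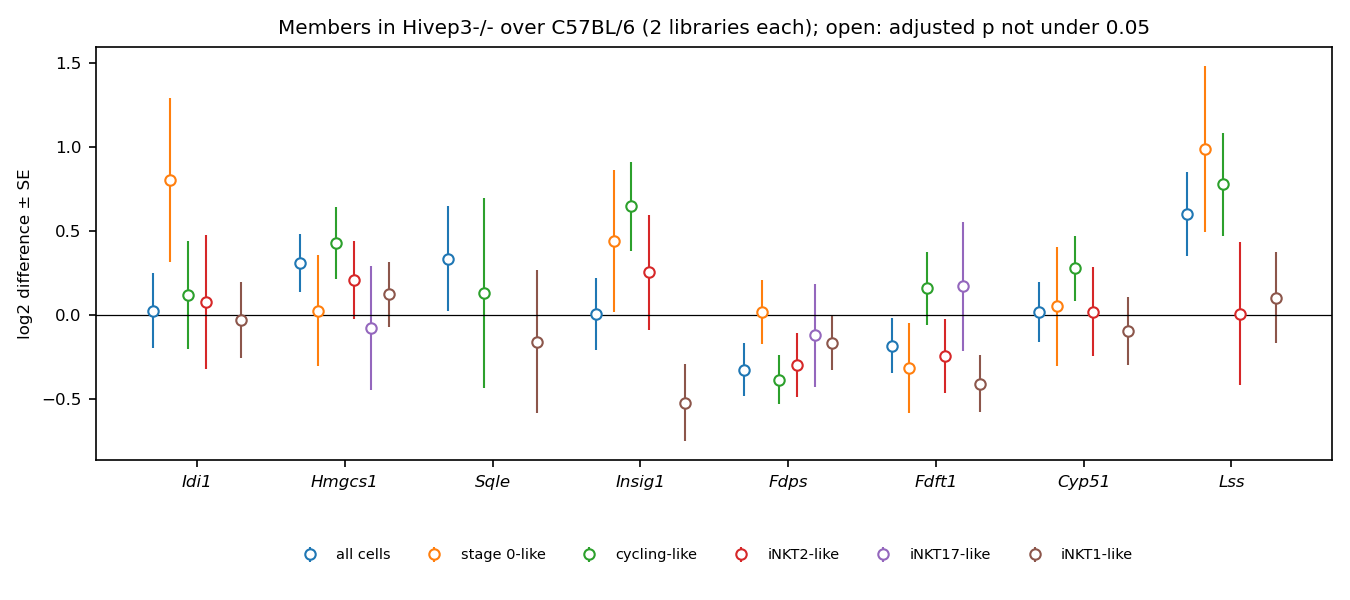
Log2 difference ± SE of each member, Hivep3-/- over C57BL/6, in all cells and in 5 classes (members too sparse to test in a class are missing). Open points mark an adjusted p that was not under 0.05, and all points are open; Insig1 is at 0.65 in cycling-like and at -0.52 in iNKT1-like cells.

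Whether the rise of the members in G2/M-gene-positive cells depended on genotype was tested with an interaction term. None of the 8 was called, where 0.976% of 11274 genes were called. Fdft1 alone of the members had an unadjusted p under 0.05 (interaction 0.58 ± 0.23 on the log2 scale, edgeR adjusted p = 0.336), as had 1378 of the 11274 genes. Insig1 had 0.70 ± 0.32 (edgeR adjusted p = 0.417). The largest value, 1.45 ± 0.78 for Sqle, rested on 34 UMIs in the G2/M-gene-positive cells. Of the other pathway genes, Elovl6, an elongase of fatty acids, was the one called by genotype anywhere, higher in Hivep3-/- cycling-like cells by 1.32 ± 0.26 (edgeR adjusted p = 0.0385).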

How the data were processed

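Thymic PBS57-CD1d tetramer-positive cells of 2 C57BL/6 and 2 Hivep3-/- mice were analysed. The authors deposited raw UMI counts per gene and barcode, without normalization, made with Cell Ranger 3.1.0 on mm10; the submitters' notes also list Seurat 3.1.4. Kept barcodes had at least 500 but under 4100 detected genes, 1000 or more UMIs and a mitochondrial share under 6%. Scrublet (in scanpy 1.11.5) marked 0 to 5 cells per library, so it had not worked, and no doublets were removed. Clusters were made with Seurat 5.3.0 and irlba 2.3.5.1 in R 4.3.3 (2000 variable genes without 59 cholesterol genes, 30 components, a mutual nearest neighbour correction over 20 neighbours with RANN 2.6.2, resolution 0.8) and named "-like" from marker lists, so names were rebuilt here.

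Counts were summed per library and group (692500 to 18086769 UMIs per class) and tested with edgeR 4.0.16: filterByExpr, TMM, two-sided quasi-likelihood test, Benjamini-Hochberg adjustment over all genes tested, called at an adjusted p under 0.05. State comparisons had library as a block. DESeq2 1.42.0 was an alternative. Levels are CPM on unscaled sums, and fits were tested on simulated data. Depth limits precision through counting error, given as UMIs where few. Of 31053 gene identifiers 99.9% were found in GENCODE vM21 (GRCm38, the assembly of mm10).

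The members and lists were chosen with earlier results of these data known. Genes named are the members, Srebf2, Scap, up to 3 called genes of smallest p per direction of each list (Ebp, Dhcr7 in S-gene-positive cells, Dhdds, Fntb in S-gene-positive cells and Pggt1b were added after their values were seen), the 10 most similar genes, and checks. Some genes of the lists are counted but not reported here by name. Alternatives were DESeq2 scaling and test, no filter, each library left out, other cell filters, states and resolutions, and single clusters.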

Additional observations from a re-analysis of the deposited data

Results flagged for a closer look

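Insig1 moved in opposite directions in the 2 genotypes, in every library, when S- or G2/M-gene-positive cells were set against non-dividing cells. Its mean log2 ratio in Hivep3-/- was above that in C57BL/6 by 0.814 for G2/M-gene-positive cells, where the interaction was tested and not called (edgeR adjusted p = 0.417), and by 1.03 for S-gene-positive cells, where it was not tested. The genotype difference of Insig1 was likewise positive in stage 0-like and cycling-like cells and negative in iNKT17-like and iNKT1-like cells, each without overlap between libraries. The gaps between these differences were 7.46 and 7.33 CPM for stage 0-like against iNKT17-like and iNKT1-like cells, and 7.96 and 7.83 CPM for cycling-like against the same classes. They were not tested, and Insig1 was too sparse for any test in iNKT17-like cells. With the cholesterol genes kept for clustering, that class held 33 Insig1 UMIs.

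The libraries of Fdps did not overlap between genotypes in stage 0-like cells, where Hivep3-/- had the higher CPM, or in cycling-like cells, where it had the lower, a gap of 15.6 CPM between the differences. Neither was called: the fitted log2 difference was 0.02 ± 0.19 in stage 0-like cells (edgeR adjusted p = 0.996) and -0.39 ± 0.15 in cycling-like cells (edgeR adjusted p = 0.222). Fdft1 was higher in Hivep3-/- in cycling-like cells and lower in stage 0-like and iNKT1-like cells, gaps of 8.96 and 9.48 CPM. With the cholesterol genes kept for clustering, its libraries overlapped between genotypes in cycling-like and stage 0-like cells. In iNKT1-like cells Fdft1 was again lower in Hivep3-/- without overlap. The gaps between classes were not tested, and the genotype groups hold 2 libraries each. The share of all genes without overlap between genotypes was not counted.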

How the results depend on the processing

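For genotype, in all cells, in each of 5 classes and for the interaction, 0 members were called under every alternative run. The replicate block was among these alternatives. The labels do not say whether same-numbered libraries were paired, and the main fits used no pairing. Deviations of same-numbered libraries correlated at 0.08 over 5248 genes, which does not settle it. With the replicate block, 126 genes were called higher and 97 lower in all cells, against 53 and 38 without it. Both G2/M and S calls kept Idi1, Fdps and Cyp51 under all 13 alternatives. Leaving out 1 library gave 3 to 5 G2/M calls and 4 to 5 S calls, and thinned counts gave 3 G2/M calls. Gzmb calls were 1 with states from 1000 UMIs (Fdps) and 4 with all non-dividing cells. Of 380 alternative values of single members, 343 kept direction and side of the threshold, 11 gained a call, 5 lost one and 21 changed sign, none of them called.

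The values that changed sign, on the log2 scale, were these. In all cells, leaving out 1 library moved the genotype difference of Idi1 between -0.16 and 0.22, of Insig1 between -0.19 and 0.14 and of Cyp51 between -0.0906 and 0.0774. Without the highest doublet scores these were -0.000301, -0.0238 and -0.0191. DESeq2's size factors gave -0.0167 for Insig1 and -0.00386 for Cyp51, DESeq2 itself -0.0173 and -0.00442, and the replicate block -0.00197 for Insig1. Insig1 was at 0.30 in G2/M- and 0.32 in S-gene-positive cells against iNKT2-like cells, and at 0.26 in S-gene-positive cells with thinned counts. Lss was at -0.44 in G2/M-gene-positive cells and Fdps at -0.0188 in Gzmb-positive cells with thinned counts, Hmgcs1 at -0.0127 in S-gene-positive cells with at least 3 UMIs, and Lss at -0.13 in Gzmb-positive cells without the Ccl1 and Gzmb cluster. The cause was not tested.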
